A study of Mus musculus with 4 samples.

Results

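The 9 genes described here make the enzymes with which the liver disposes of nitrogen: Nags, Cps1, Otc, Ass1, Asl and Arg1 of the urea cycle, Glul and Gls2 of glutamine turnover, and Hal of histidine breakdown. They were chosen by name, with no measured value in the rule, though earlier results of these data were known. Each is represented by the open-chromatin peaks that the deposited annotation assigns to its symbol as promoter or distal. All 9 were found, among 25458 genes with at least 1 peak. They held 51 of 106319 peaks in the Mertk knockout library and 26 of 72302 peaks in the wild-type library.

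The livers came from mice with bile duct ligation, a surgical model of cholestatic fibrosis, and were of 2 genotypes: Mertk knockout and wild type. Mertk encodes a receptor tyrosine kinase with which macrophages take up dying cells. Nuclei of frozen liver were profiled with the 10x Multiome assay, which reads RNA and transposase-accessible DNA (ATAC) from the same nucleus. Each genotype had 1 ATAC and 1 RNA library, and the number of animals per library, the form of the Mertk allele, the age and strain of the mice and the time after surgery are not in the labels, so every difference below describes a pair of libraries and carries no test. The ATAC data used here are peak positions without heights, and RNA per gene was not analysed here.

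Ammonia enters the urea cycle in the mitochondria of hepatocytes. Nags makes N-acetylglutamate, the obligate activator of carbamoyl phosphate synthetase, the product of Cps1. Otc joins carbamoyl phosphate to ornithine, Ass1 and Asl build and split argininosuccinate in the cytosol, and Arg1 releases urea from arginine. The cycle is most active in hepatocytes around the portal vein, where Gls2 frees ammonia from glutamine and Hal removes it from histidine, whereas Glul, glutamine synthetase, is confined among hepatocytes to those around the central vein. Several of these genes are also used outside hepatocytes: Arg1 is a well-known product of macrophages, and Ass1 and Glul are active in many cell types.

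The libraries differed in depth and in the peaks at cell type markers. The knockout library had 5339 called nuclei with 83996145 ATAC fragments and 11083766 RNA molecules (UMIs). The wild-type library had 5828 called nuclei with 40858512 fragments and 31798452 UMIs, so fragments were 2.06-fold higher in the knockout library. Of these fragments, 46.0% in the knockout and 33.7% in the wild-type library lay in peaks of the same library. Of the called barcodes, 44 occurred in both libraries. Peaks covered 91.3 Mb in the knockout library and 61.8 Mb in the wild-type library. Both samples are labelled liver. Yet all 11 listed hepatocyte marker genes had a promoter peak in the knockout library and 2 had one in the wild-type library. These markers were named after their values were seen. The promoter peak was in the knockout library alone for 9 of the 11 (81.8%), against 15.4% of genes with one in either library. Alb, Serpina1a, Cyp3a11, Cyp2e1, Fgb and Ahsg had no peak at all in the wild-type library, as did 13% of all genes with a peak. The list was not uniform: Ttr had 3 knockout and 4 wild-type peaks, and Trf had 7 knockout and 6 wild-type peaks. The 11 hepatocyte markers had 89 knockout peaks with 73.2 kb and 20 wild-type peaks with 16.5 kb. The 10 macrophage markers had 61 knockout peaks with 51.8 kb and 74 wild-type peaks with 62.1 kb. The 6 endothelial markers had 100 knockout and 55 wild-type peaks, and the 7 stellate cell markers had 47 knockout and 7 wild-type peaks. Peaks were called over all nuclei of a library, so fewer hepatocyte nuclei and less open chromatin per hepatocyte cannot be told apart. The part of depth and of cell composition in the results was not tested.

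Promoter sequences are shown for 3 members, Nags and Otc with an open start in the knockout library alone and Glul with one in both, as 300 bases from 250 before to 50 after the RefSeq start (GRCm38.p6, plus strand, 5′ to 3′). The windows of Nags (chr11:102145263-102145562) and Otc (chrX:10252055-10252354) lay wholly within a knockout peak and had 0 bases under a wild-type peak. That of Glul (chr1:153899679-153899978) lay wholly within a peak of both libraries. For Otc the start used was that of the RefSeq promoter table, 10252305, while its RefSeq gene span begins at 10252230. Capitals mark matches to any of 14 short motifs searched on both strands.
Nags: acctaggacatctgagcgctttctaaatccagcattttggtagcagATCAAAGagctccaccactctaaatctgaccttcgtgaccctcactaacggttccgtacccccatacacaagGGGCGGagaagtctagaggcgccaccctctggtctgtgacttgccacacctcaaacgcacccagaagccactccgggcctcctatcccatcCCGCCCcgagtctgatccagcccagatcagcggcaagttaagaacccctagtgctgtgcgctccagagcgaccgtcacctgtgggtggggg
Otc: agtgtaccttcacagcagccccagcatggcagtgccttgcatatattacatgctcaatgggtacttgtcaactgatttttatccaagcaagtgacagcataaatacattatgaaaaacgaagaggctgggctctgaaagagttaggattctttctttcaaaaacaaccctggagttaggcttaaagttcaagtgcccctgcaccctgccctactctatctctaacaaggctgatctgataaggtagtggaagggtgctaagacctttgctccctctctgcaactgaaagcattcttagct
Glul: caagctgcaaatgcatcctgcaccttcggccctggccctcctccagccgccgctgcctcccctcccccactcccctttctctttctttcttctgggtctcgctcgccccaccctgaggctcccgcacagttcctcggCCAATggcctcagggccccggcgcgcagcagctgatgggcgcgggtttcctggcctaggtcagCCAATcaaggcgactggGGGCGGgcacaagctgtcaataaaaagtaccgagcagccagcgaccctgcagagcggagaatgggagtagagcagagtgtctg
The 3 windows differ in base composition. Glul had 64.3% G and C and 17 CG pairs, Nags 57.7% and 14, and Otc 44.3% and 1. Windows of 2 further members were in the RefSeq table, both wholly under a peak in each library: Ass1 had 74% and 27 CG pairs, and Hal 47.7% and 7. Over 32851 windows of the table, the median was 61.7% with 21 CG pairs in the 13199 windows that touched a peak in both libraries, 54% with 7 in the 2737 open in the knockout library alone, and 47.3% with 3 in the 16346 open in neither. Hal, though open in both libraries, had a share of G and C near the median of the windows without a peak, and Otc lay below that median.

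In the Nags window, GGGCGG, the GC box bound by Sp factors, occurred on the forward strand at -132 to -127 and on the reverse strand at -41 to -36, counted from the start site. CTTTGAT, a core recognised by TCF/LEF factors, occurred there on the reverse strand at -204 to -198. The window of Hal, open in both libraries, also held CTTTGAT, on the forward strand at -199 to -193. The Glul window held CCAAT at -113 to -109 and at -50 to -46 and GGGCGG at -33 to -28. None of the 14 motifs was in the Otc window. CCAAT was present in 37.4%, GGGCGG in 35.7% and CTTTGAT in 3.73% of all windows. The other motifs searched were CAAAGTCCA (HNF4A), TTGCNNAA (C/EBP), TGTTTAC and TGTTTGC (FOXA), GTTAAT (HNF1), TGACGTCA (the cAMP response element), CACGTG (an E-box), TGANTCA (AP-1), TTCNNNGAA (STAT), AGAGGAAG (PU.1) and TATAAA (the TATA box). No matches overlapped one another in the 3 printed windows, and a match describes letters, not a binding site.

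All 9 members had a promoter peak in the knockout library and 5 had one in the wild-type library: Ass1, Asl, Glul, Gls2 and Hal. The 4 with a knockout-only promoter peak were Nags, Cps1 and Otc, of the mitochondrial part of the urea cycle, and the cytosolic enzyme Arg1. Over all genes with a promoter peak in either library, 15.4% had it in the knockout library alone and 3.17% in the wild-type library alone, against 4 and 0 of the 9 members.

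**Figure D1:**
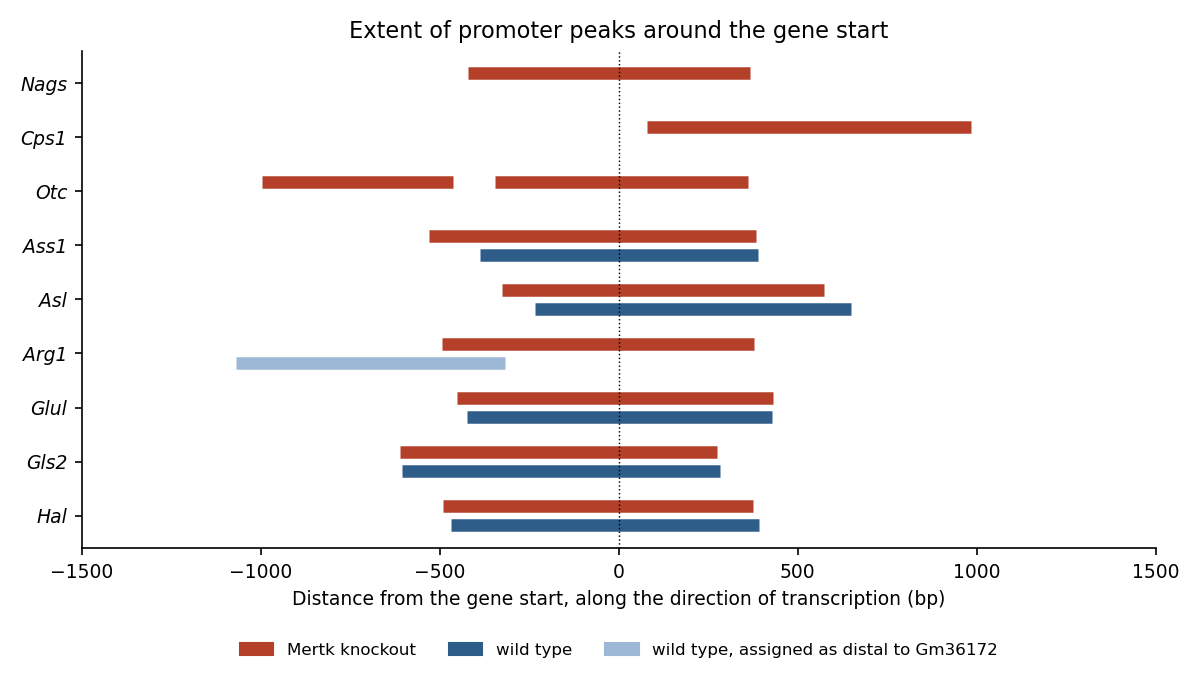
Promoter peaks around the gene start, with distance from the start in bp along the direction of transcription on the x axis. Knockout peaks are drawn above wild-type peaks for each gene. Nags, Cps1 and Otc have knockout bars only, and at Arg1 the wild-type bar (light blue) lies upstream of the start and is assigned to another gene. The second Asl promoter peak lies outside the plotted range.

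The promoters with a peak in both libraries matched closely in position. At Gls2 the peak reached from -611 to 273 bp around the start in the knockout library and from -605 to 282 bp in the wild-type library. At Glul it reached from -453 to 432 bp in the knockout library, against -423 to 429 bp in the wild-type library. Ass1 and Hal were alike in this, with peak centres 75 and 18 bp apart. Asl had a second promoter peak in both libraries, from -5477 to -4568 bp in the knockout library, which the annotation also assigns to the promoter of the neighbouring gene Crcp.

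Arg1 differed from the other 3 one-library promoters. Its knockout promoter peak (chr10:24927091-24927963) spanned the start from -493 to 379 bp. A wild-type peak (chr10:24927787-24928539) overlapped it by 177 bp but lay from -1069 to -317 bp, and the annotation assigned it to Gm36172 as distal. With any peak within 1 kb of the RefSeq start counted, Arg1 had one in both libraries and the count in the wild-type library was 6 of 9. By contrast, the nearest wild-type peak was 4935 bp from the Otc promoter peak over the start, 6041 bp from that of Nags and 60412 bp from that of Cps1.

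Taking promoter and distal peaks together, 7 members had more peaks in the knockout library, Asl had 2 in each and Ass1 had fewer. More knockout than wild-type peaks were found at 60.3% of all genes with a peak. Summed over the 9 members, peak length was 43.3 kb in the knockout library and 23 kb in the wild-type library, a ratio of 1.88, against a ratio of 1.48 for the covered length of all peaks. Without Cps1 the other 8 members had 32.9 kb in the knockout library and 23 kb in the wild-type library, a ratio of 1.43, so the set's surplus over all peaks rests on Cps1. To compare genes, summed peak lengths, with 1 kb added to each, were turned into a log2 ratio, knockout over wild type, and this was centred on the median of the 14692 genes whose mean length was at least 2 kb. That median was 0.39 before centring, so a centred value of 0 stands for a gene with the general knockout surplus. A centred value at or beyond 1 or -1, which is 2-fold, was taken as past a rule of size. Of the 9 members, 8 reached the minimum length and Asl did not. Cps1 and Nags were past the rule on the higher side and 0 members on the lower, against 10.3% and 4.08% of measured genes. Without centring the shares of measured genes were 19.6% and 1.34%, and centred on total covered length they were 7.70% and 6.80%. The median centred value of the 9 members was 0.05, where that of the measured genes is 0 by construction. The order of the centred values was Cps1, Nags, Hal, Arg1, Glul, Gls2, Otc, Asl and Ass1. Without replicates, whether neighbours in this order differ cannot be said.

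**Figure D2:**
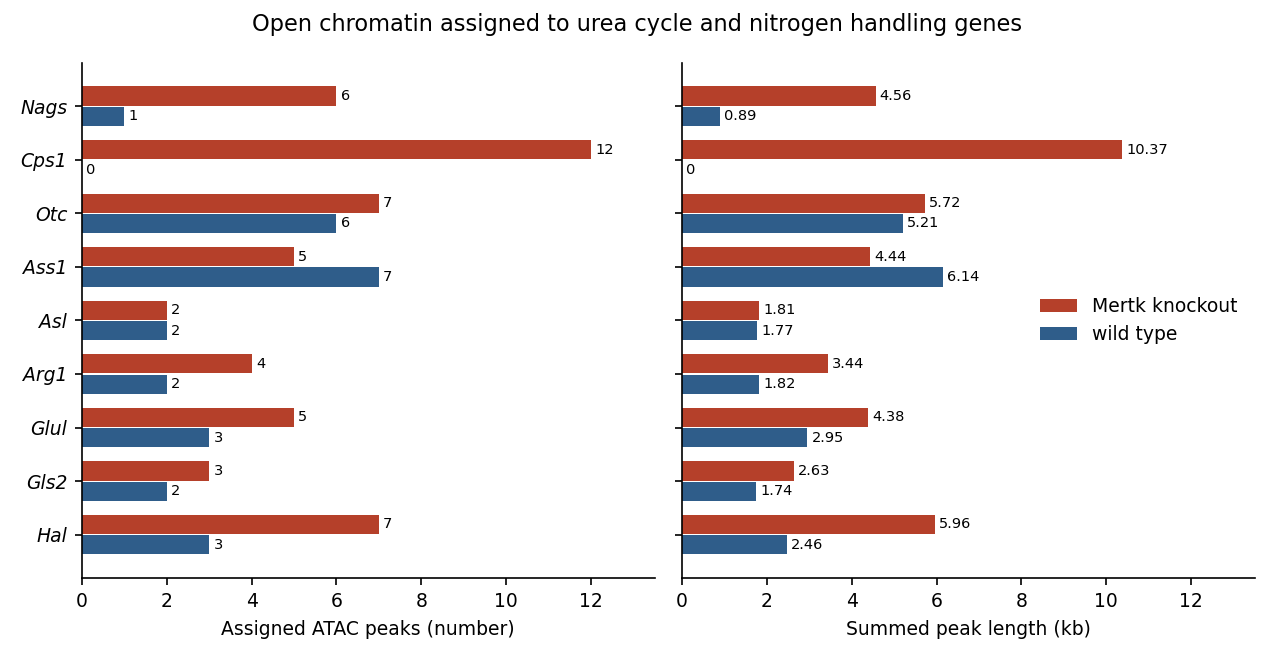
Number of assigned ATAC peaks (left) and their summed length in kb (right) for each member, with 1 library per genotype and no error bars. Cps1 has 12 knockout peaks and 0 wild-type peaks, and Ass1, with 5 knockout and 7 wild-type peaks, is the member with fewer in the knockout library.

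Cps1 and Nags, whose enzyme makes the activator of the Cps1 product, stood highest. Cps1, on chromosome 1 (67122426 to 67231267, mm10), had 12 peaks and 10.4 kb in the knockout library and was listed at 0 in the wild-type library. Peaks in the knockout library alone, with 0 in the wild-type library, were found at 2.93% of measured genes. Of the 12 peaks, 8 lay upstream at 4.32 to 32.6 kb from the start, 1 was the promoter peak from 79 to 983 bp and 3 lay in the gene body at 3.11, 41.0 and 54.8 kb. None was also assigned to another gene. The absence extended past the assigned peaks: within the gene and 50 kb on both sides, 17 knockout peaks and 0 wild-type peaks were called, whatever gene they were assigned to. The smallest distance from any of the 12 to a wild-type peak was 27.3 kb. The centred value was 3.11, rank 31 of the 14692 measured genes. Since the wild-type value is 0, its size rests on the added length, and with 2 kb in place of 1 kb it was 2.31.

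Nags (chromosome 11, 102145513 to 102149528) had 6 knockout peaks with 4.56 kb and 1 wild-type peak with 0.892 kb, a centred log2 ratio of 1.16. The wild-type peak lay 6.91 kb upstream and coincided with a knockout peak 7 bp away in its centre. The 5 peaks in the knockout library alone were the promoter peak, other upstream peaks at 2.4 and 15.3 kb and 2 in the gene body at 0.858 and 2.18 kb. The promoter peak and both body peaks were also assigned to the gene model Gm11586. The place of Nags past the rule was not stable: the ratio was below 1 under 6 of 11 other settings, and under another, RefSeq gene bodies with 5 kb around them, Nags was below the minimum length. The ratio was -0.041 when only as many of the widest knockout peaks were kept as the wild-type list has, where Nags was also below that minimum.

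Otc, on chromosome X (10252230 to 10321024), had similar totals and different positions in the 2 libraries. It had 7 knockout peaks with 5.72 kb and 6 wild-type peaks with 5.21 kb, a centred ratio of -0.28. The libraries shared 3 of these regions, 17.5 and 12.6 kb upstream and 5.67 kb into the gene. The knockout library alone had 2 promoter peaks (chrX:10251308-10251842 and chrX:10251958-10252665) and body peaks at 15.8 and 29.3 kb. In the wild-type library alone were a peak at 66.0 kb, at the far end of the gene, and a pair beyond it at 79.6 and 88.1 kb. The Otc sequence printed above lies within the second of its promoter peaks.

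**Figure D3:**
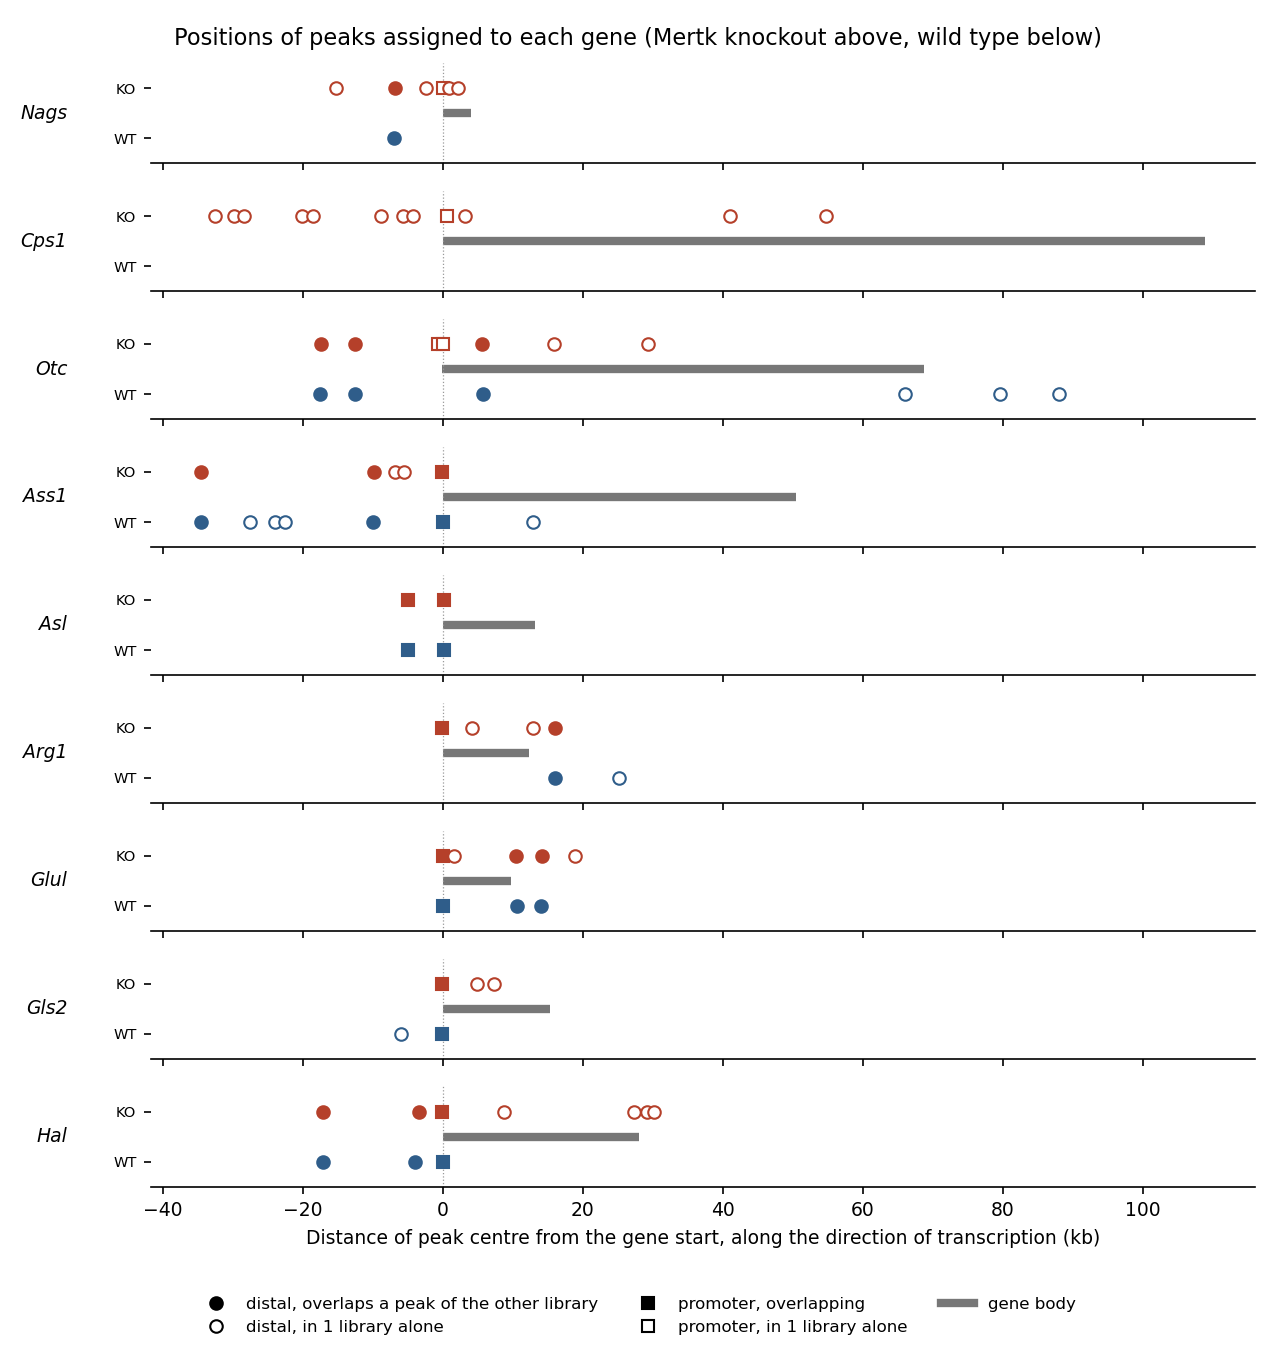
Positions of all peaks assigned to each member, as the distance of the peak centre from the gene start in kb along the direction of transcription. In each panel knockout peaks are above and wild-type peaks below the grey gene body. Squares are promoter peaks and circles distal peaks. Filled symbols overlap a peak of the other library and open symbols do not. The Arg1 promoter square is filled because it overlaps the wild-type peak assigned to Gm36172. All Cps1 symbols are open and in the knockout row.

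The cytosolic enzymes did not share the contrast at Cps1, and in total length neither did the mitochondrial enzyme Otc (centred ratio -0.28). Ass1 (chromosome 2, 31470270 to 31520670) had 5 knockout peaks with 4.44 kb and 7 wild-type peaks with 6.14 kb, a centred ratio of -0.79 and the lowest of the 9. Both libraries had the promoter peak and the peaks 34.5 kb and about 9.77 kb upstream. The 4 wild-type peaks found in that library alone comprised a group at 27.5, 24.0 and 22.6 kb upstream, all also assigned to Hmcn2, whose annotated body reaches into this interval, and 1 peak 12.9 kb into Ass1. The knockout library alone had peaks 6.85 and 5.6 kb upstream. With only peaks assigned to 1 gene, which leaves out those shared with Hmcn2, the centred ratio of Ass1 was 0.03.

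Asl (chromosome 5, 130011258 to 130024381) had the same 2 promoter peaks in both libraries and 0 distal peaks, with 1.81 kb in the knockout and 1.77 kb in the wild-type library. Arg1 (chromosome 10, 24915207 to 24927470) had 4 knockout peaks with 3.44 kb and 2 wild-type peaks with 1.82 kb, a centred ratio of 0.26. A region 16.1 kb past the start in the wild-type library, beyond the end of the gene, had a peak in both libraries and was also assigned to Med23. The knockout library alone had a body peak at 4.24 kb and a peak at 12.9 kb, and the wild-type library alone a peak at 25.2 kb. With only peaks assigned to 1 gene, Arg1 was past the rule at 1.05. That setting drops its knockout promoter peak, also assigned to Gm36172, and both wild-type peaks, also assigned to Med23. It leaves knockout peaks of 794 and 890 bp against no wild-type peak. These fall short of the 2 kb minimum, which was judged on the full lengths.

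Both glutamine enzymes, which belong to opposite zones of the lobule, lay close to the median gene. Glul (chromosome 1, 153899929 to 153909723) had 5 knockout peaks with 4.38 kb and 3 wild-type peaks with 2.95 kb, a centred ratio of 0.05. All 3 wild-type peaks, the promoter, which is also assigned to Teddm2, and the regions 10.4 and 14.2 kb past the start, had a knockout partner. The knockout library alone added a body peak at 1.67 kb and a peak at 18.8 kb. At the 14.2 kb region the knockout peak was 945 bp wide and its wild-type partner 1283 bp, the widest of the 26 wild-type peaks. Gls2 (chromosome 10, 128194635 to 128210004) had 3 knockout peaks with 2.63 kb and 2 wild-type peaks with 1.74 kb, a centred ratio of 0.01. Beyond the common promoter, the knockout library had body peaks at 4.89 and 7.34 kb and the wild-type library a peak 6.03 kb upstream. Across the other settings Glul ranged from -0.17 to 0.44 and Gls2 from -0.91 to 0.41, neither reaching the rule.

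Hal, on chromosome 10 (93488768 to 93516761), had 7 knockout peaks with 5.96 kb and 3 wild-type peaks with 2.46 kb, a centred ratio of 0.61. All 3 wild-type regions, the promoter and those 17.1 kb (also assigned to Lta4h) and 3.98 kb upstream, had a knockout partner. The peaks nearer the start overlapped by just 140 bp, their centres lying 3.37 kb upstream in the knockout and 3.98 kb in the wild-type library. The 4 peaks in the knockout library alone lay at 8.78 kb in the gene and at 27.3, 29.1 and 30.1 kb, around its far end. The last 3 were also assigned to the adjacent gene Amdhd1 (93523338 to 93540111), which encodes imidazolonepropionase, a later step of the same histidine pathway. Amdhd1 itself had 9 knockout peaks with 7.36 kb and 1 wild-type peak with 0.823 kb, a centred ratio of 1.80.

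Most knockout peaks of the 9 genes had no wild-type counterpart, and most wild-type peaks had a knockout one. With an overlap of at least 1 bp, 18 of 51 knockout peaks had a wild-type partner (35.3%, exact 95% interval 22.4% to 49.9%), against 49.3% of all knockout peaks. For distal peaks the share was 11 of 40 (27.5%, 14.6% to 43.9%), against 43.7% of all distal peaks. In the wild-type library 17 of 26 peaks had a knockout partner (65.4%, 44.3% to 82.8%), against 72.4% of all. These intervals cover counting error only and treat peaks as independent, although they cluster in 9 genes. The shares of all peaks lie within them, which is not a test. Partners were tightly aligned, with a median of 35 bp between centres over 18 pairs and of 37 bp over 51979 pairs in all. Of the 14 knockout peaks in gene bodies, 13 had no wild-type partner. Upstream of the start it was 12 of 19, and 4 of 7 downstream. Over all knockout distal peaks, wherever they lie, 49403 of 87769 had no partner. That share was not computed by position, so no like background stands beside these counts. Cps1, the gene with 12 of the 33 knockout peaks without a partner, contributes 8 of the 12 upstream ones and 3 of the 13 in gene bodies.

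The wider nitrogen and amino acid genes were grouped in 6 lists with 70 names, 68 of them with a peak and 57 long enough to be measured. The knockout library was higher by the rule of size for 18 of the 57 (31.6%, against 10.3% of all measured genes). It was lower for 0, and 39 lay between, with a median of 0.35. Of the 68, 9 were listed at 0 in the wild-type library, close to the 13% of all genes with a peak, whatever their length. Of these 9, Slc38a3, Gldc, Aspg, Bhmt, Mat1a and Gnmt were among the 57 measured genes. Over all measured genes, the share with knockout peaks and 0 wild-type peaks was 2.93%. Knockout-only promoter peaks were found for 16 of 66 genes with one in either library (24.2%) and in the wild-type library alone for 0. Over all genes with a promoter peak in either library, these shares were 15.4% and 3.17%. When as many of the widest knockout peaks were kept as the wild-type list has, 8 of 45 genes were higher and 2 lower, against 9.85% and 6.40% of all genes measured that way.

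**Figure D4:**
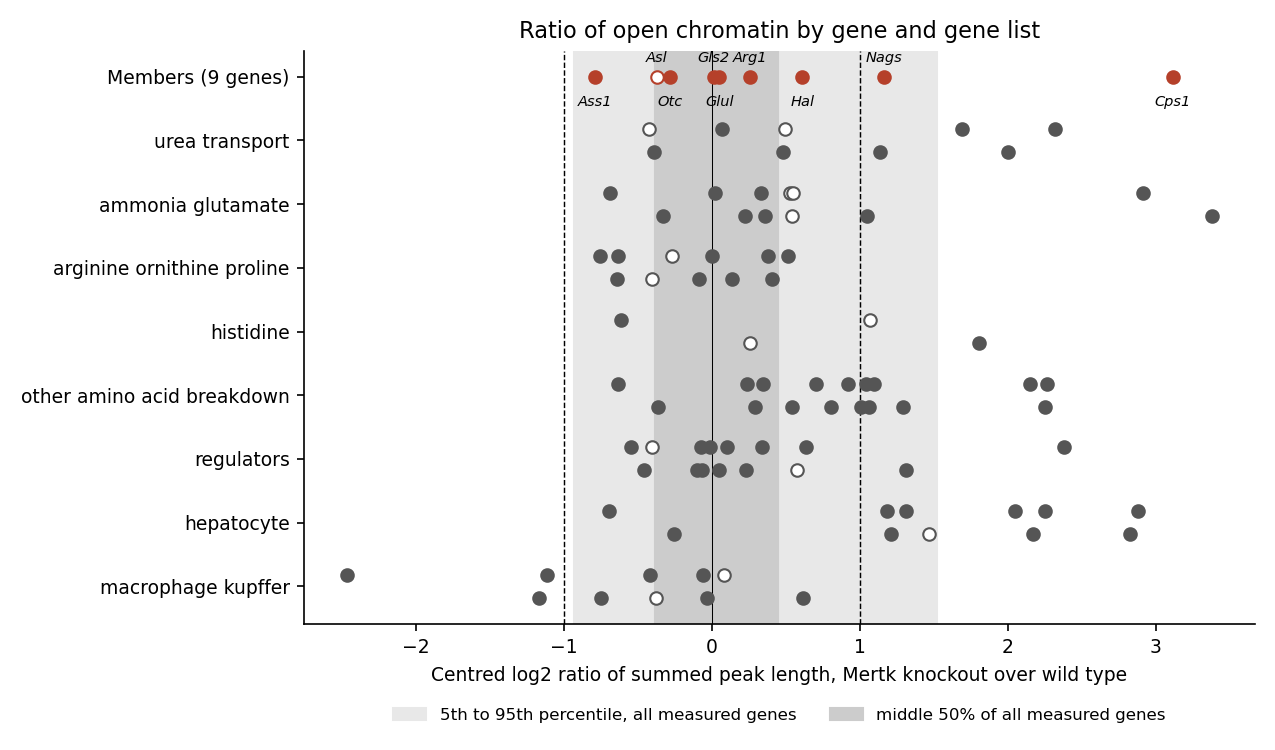
Centred log2 ratio of summed peak length, knockout over wild type, for the members (red, named), the 6 nitrogen lists and the hepatocyte and macrophage markers. Each point is a gene, hollow where its mean length is under 2 kb, and points are staggered vertically for legibility. Grey bands give the spread of all measured genes, with the middle 50% from -0.38 to 0.45, and dashed lines mark 1 and -1. Cps1 lies far to the right of the other members, and most members sit within the bands.

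Transporters that serve the cycle were among the highest. Of 7 measured genes 4 were past the rule, all higher. Slc25a15, the mitochondrial ornithine carrier, had 8 knockout peaks and 1 wild-type peak (centred ratio 1.69). The bracketed values that follow are also centred log2 ratios. Slc25a13, the aspartate-glutamate carrier citrin, had 8 knockout and 2 wild-type peaks (1.13). Slc38a4, an amino acid transporter of hepatocytes, had 26 knockout and 3 wild-type peaks (2.32), with a knockout-only promoter peak. The glutamine transporter Slc38a3 had 5 knockout and 0 wild-type peaks, also with that promoter contrast. Among the genes that release or fix ammonia, 3 of 9 were higher: Gldc of the glycine cleavage system with 15 knockout and 0 wild-type peaks, the asparaginase gene Aspg with 10 knockout and 0 wild-type peaks, and the serine dehydratase-like gene Sdsl with 8 knockout and 2 wild-type peaks (1.05). Gldc, Aspg, Sdsl, Sds and Amt had knockout-only promoter peaks.

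Arginine, ornithine and proline genes had 0 of 9 past the rule and a median of 0.00. Arg2, the mitochondrial arginase of many other tissues, had 5 knockout and 6 wild-type peaks (-0.64). Odc1, which starts polyamine synthesis, had 6 knockout and 8 wild-type peaks (-0.76). Oat, an ornithine-degrading enzyme of the central vein zone, had 7 knockout and 3 wild-type peaks (0.51). Agmat, for agmatinase, and Nos2, for inducible nitric oxide synthase, had knockout-only promoter peaks, with centred ratios of 0.14 and 0.00. In the histidine list, Amdhd1 was 1 of 2 measured genes past the rule. Hdc, which makes histamine, had 8 knockout and 10 wild-type peaks (-0.61). Ftcd, a later enzyme of the pathway, had 2 knockout and 0 wild-type peaks, with a knockout-only promoter peak.

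Of 17 genes for the breakdown of other amino acids, 8 were higher and 0 lower. The methionine cycle genes Mat1a, Bhmt and Gnmt had 6 knockout peaks each and were listed at 0 in the wild-type library, and Cbs, which draws homocysteine towards cysteine, had 6 knockout peaks and 1 wild-type peak (1.29). Tdo2 and Hpd, for tryptophan and tyrosine, had knockout-only promoter peaks, as did Mat1a, Bhmt and Gnmt. In the list of regulators 2 of 13 were higher, Ppargc1a, a coactivator of fasting metabolism, with 20 knockout and 2 wild-type peaks (2.38), and Hnf4a, a hepatocyte transcription factor, with 7 knockout peaks and 1 wild-type peak (1.31). Of the Wnt targets of the central vein zone, Axin2 had 5 knockout and 2 wild-type peaks (0.64) and Lgr5 had 4 in each library (-0.54).

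Zone markers, named after their values were seen, were counted in the same way. Over all measured genes, 10.3% were past the rule on the higher side. Of 6 genes listed for hepatocytes around the portal vein, 5 were measured and 4 were past the rule on the higher side, with 36 knockout peaks and 5 wild-type peaks in all. Of 9 genes listed for those around the central vein, 7 were measured and 1 was past it, with 63 knockout and 40 wild-type peaks. The genes of this list differed: Cyp2e1 had 5 knockout and 0 wild-type peaks and Cyp1a2 had 3 knockout and 0 wild-type peaks, both with knockout-only promoter peaks, whereas Slc1a2 had 15 knockout and 16 wild-type peaks and Lhpp had 17 knockout and 10 wild-type peaks. The lists were not compared with each other by a test. Axin2 and Tbx3 are active in other cell types too, and the zone lists share Sds, Sdsl, Oat, Rhbg, Axin2, Lgr5 and Tbx3 with the nitrogen lists.

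Judged by peak length in the 2 ATAC libraries, the genes most like Cps1 were Gli2 (10.2 kb in the knockout library), Serpina1b (10.1 kb) and Nxph1 (10.6 kb), all with 12 knockout peaks and listed at 0 in the wild-type library. Their distances from Cps1 in log2(kb + 1) were 0.0156, 0.0297 and 0.0339. The pattern was rare, with 8 other measured genes at 12 knockout and 0 wild-type peaks. That of Glul was common: 399 other measured genes had 5 knockout and 3 wild-type peaks, and the nearest in length were Tas1r2, Zfp64 and Trp53inp1, at distances of 0.00874, 0.0158 and 0.0207.

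Mertk itself had 13 knockout peaks with 10.9 kb and 10 wild-type peaks with 8.63 kb, with a promoter peak in both libraries and a centred ratio of -0.09. Which exons the knockout lacks is not labelled, so these peaks check neither genotype.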

How the data were processed

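Peaks of 2 ATAC libraries, 1 per genotype, were analysed, and the 2 RNA libraries of the same nuclei entered only as depth. Per the file headers, the authors ran cellranger-arc 2.0.2 on mm10 for each library. Further caller settings were not given in the sources used here. Deposited peak lists and annotations hold positions and a signed distance to genes, with no score. Deposited per-barcode tables hold raw counts, used for depth and called nuclei only; the depth at single peaks is unknown. How doublets were treated is not given, and none were called here.

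Peaks off chromosomes 1 to 19, X and Y were dropped (44 knockout and 43 wild-type peaks). Starts are printed 1-based. Deposited lines of type promoter (distance -1000 to 100 bp) or distal were summed per gene. The log2 ratio (knockout over wild type, 1 kb added) was centred over all genes with a mean of at least 2 kb. Starts came from the RefSeq promoter table for 5 members, otherwise from the RefSeq gene end nearest a promoter peak. Exons were not used, since the reference holds gene spans. With 1 library per genotype no test was possible. Intervals are Clopper-Pearson.

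Members, lists, motifs and settings were chosen with earlier results of these data known. The text names Mertk, the members, genes sharing their peaks, the 4 largest absolute ratios and one-library promoters of each nitrogen list, and the 3 genes nearest Cps1 and Glul; some genes under this rule are not reported here. The hepatocyte list also holds Tf, an older symbol of its entry Trf, which matched no gene. Hepatocyte and zone markers were named after their values were seen.

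Scripts ran in Python 3.11.15 with pandas 2.3.3, numpy 2.4.6, matplotlib 3.10.9 and scipy 1.17.1. Overlaps equalled those of bedtools 2.31.1, and the ratio code was tested on simulated data.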

Additional observations from a re-analysis of the deposited data

How the results depend on the processing

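No paired analysis was possible because each genotype has 1 ATAC library, and no replicate could be left out. Of the 11 other settings, Cps1 was past the size rule under 10 and fell to 0.92 with promoter peaks only, where 1 promoter peak sets the value. The Nags ratio, 1.16, fell to -0.041, close to the median gene, with an equal number of peaks, where Nags was under the minimum length. The 2 members past the rule became 1 with 2 kb added, with total covered length as the centre, with promoter peaks only, with distal peaks only, with an equal number of peaks and with a 5 kb minimum. That 1 was Otc for promoter peaks and Cps1 otherwise. In the same order, 7.13%, 7.70%, 2.06%, 12.2%, 9.85% and 7.61% of all measured genes were higher. Without centring Cps1, Nags and Hal were past the rule, where 19.6% of all measured genes were higher. With peaks assigned to 1 gene they were Cps1 and Arg1 (10.6% of all genes), with no wild-type peak of Arg1 left. With RefSeq gene bodies and 5 kb around them they were Cps1 and Hal (7.49% of all genes), Nags being under the minimum there. The median of the 9 centred ratios, 0.05, was -0.12 centred on total covered length. The 18 higher genes of the nitrogen lists became 11 of 57 with 2 kb added (7.13% of all genes there), 2 of 56 with promoter peaks only (2.06%), 8 of 45 with an equal number of peaks (9.85%) and 5 of 19 with a 5 kb minimum (7.61%). The 0 lower genes became 1 of 55 with peaks assigned to 1 gene (5.14%) and 2 of 45 with an equal number of peaks (6.40%). Shares of overlapping peaks stayed within their wide intervals under all 4 settings tried, but they moved with an equal number of peaks. There the knockout share was 48.4% of 31 peaks, against 35.3% of 51 before. The wild-type share was 53.8% of 26 peaks, against 65.4%. The share over all peaks was not computed under that setting. Apart from the fewer peaks, promoters or genes that a setting leaves by its construction, the cause was not tested. Peaks without heights cannot separate a closed region from one just under the caller's limit. The wild-type library had fewer fragments and a smaller share of them in its own peaks.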
